A study of Mus musculus with 16 samples.

Results

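Of the 79482 regions of the mouse genome that carried a called H3K27ac peak in at least 1 of 8 libraries of small intestinal epithelium, 2748 (3.46%) were found in both libraries of adult enterocytes and in none of the other 6. These enterocyte-only regions were selected on the peak lists themselves. The peaks of all 8 lists were joined where they overlapped or touched, and a region counted for a library when the library's peaks held 1 or more of its bases. Their presence in enterocytes and absence elsewhere is therefore the rule and not a finding. What follows describes how long and how strong they were, how the 2 enterocyte libraries matched at them, where they lay, and how much H3K27ac surrounded them. They covered 2.44 Mb when joined over both libraries.

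H3K27ac is an acetyl group placed on a histone tail by the acetyltransferases p300 and CBP, and it is a mark of promoters and enhancers in use. Many enhancers carry it in a few cell types while promoters tend to carry it in many. Enterocytes take up nutrients across the brush border of the villus, and they arise from stem cells at the crypt base that express the receptor Lgr5.

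Every group came from small intestine of mice on a mixed background of C57BL/6 and CD1, and had 2 libraries that the series calls biological duplicates. The E12.5 and E14.5 groups held embryonic epithelial cells sorted as EpCAM+ CD31- CD45- DAPI-. The ISC group held Lgr5-EGFP high cells and the enterocyte group cells sorted as EpCAM+ CD31- CD45- DAPI-, both from Lgr5EGFP-Cre-ERT males of postnatal day 60, so the adult cells carry that allele in both groups and the labels name it for no embryo. Per the labels' protocols 250000 cells were sorted for a library, and each ChIP library had its own input. EpCAM marks all epithelium and the stated enterocyte gate has no marker of the absorptive lineage, so other epithelial cells within it cannot be told apart here. The label could not be checked against marker genes either, because the lists are on the build mm9 and the gene table used here is not, which is also why regions are named by position alone. The ChIP libraries held 34.6 to 54.6 M tags. The enterocyte libraries held 42.2 and 34.6 M tags and had the shortest lists, with 36439 and 35614 peaks, while each other library had 44594 to 52510. ISC replicate 2 stood apart from its replicate, with peaks over 76.1 Mb against 51.2 Mb, and its weight in the rule is given below.

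Enterocyte-only regions took up a small share of the enterocyte lists. They held 2993 of the peaks of replicate 1 (8.21%) and 3083 of those of replicate 2 (8.66%). By length the share was smaller, 2.13 Mb or 5.50% of the covered bases in replicate 1 and 1.86 Mb or 4.79% in replicate 2. Of the 21377 regions seen in both enterocyte libraries 12.9% were enterocyte-only, and 12282 were in all 8 libraries. The same rule turned to the other groups gave 3223 regions only in E12.5, 2252 only in E14.5 and 3593 only in ISC.

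Most enterocyte-only regions were short and single. In 2280 of them (83.0%) each enterocyte library had exactly 1 peak. The median region was 703 bp long, with a range of 234 to 6206 bp. The length under peaks had a median of 600.5 bp in replicate 1 and 502 bp in replicate 2. Their peaks were shorter than the lists they came from, at a median of 558 bp against 652 bp in replicate 1 and 468 bp against 698 bp in replicate 2. Both libraries covered at least 1 kb in 376 regions (13.7%), at least 2 kb in 73 and at least 5 kb in 2. Regions of 1 other group alone were also short, with a median length of 642 bp in E12.5, 550 bp in E14.5 and 930 bp in ISC.

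The rule asks for overlapping or touching peaks of both enterocyte libraries, so closeness between them within a region is in part set by the choice. The highest points of their peaks lay a median of 89 bp apart, within 100 bp in 54.4% of the regions and within 500 bp in 94.1%. The bases shared by both libraries made up a median of 0.644 of the bases in either, with a lower quartile of 0.473. Replicate 1 had the longer cover in 1723 regions and replicate 2 in 1021, and 4 were equal. Across the 2748 regions Spearman's rho between the libraries was 0.61 for covered length, 0.49 for −log10 q and 0.44 for fold enrichment. These are correlations across regions of 1 pair of libraries, and regions are not independent replicates.

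**Figure D1:**
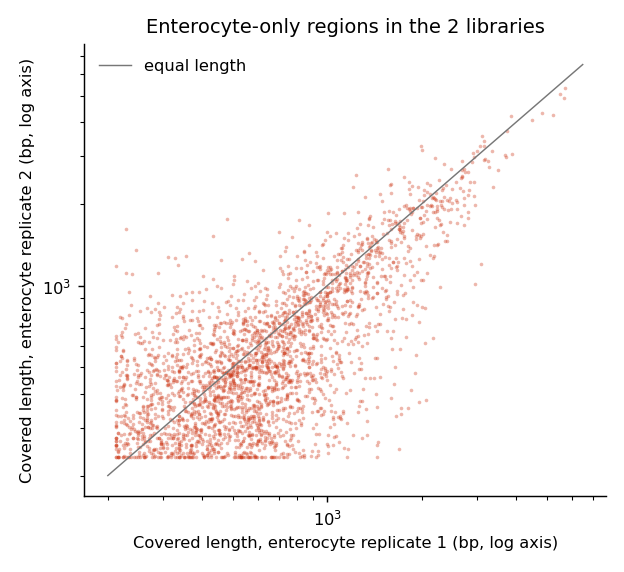
Length under peaks in each of the 2748 enterocyte-only regions in enterocyte replicate 1 (horizontal, bp, log axis) and replicate 2 (vertical, bp, log axis), with 1 point per region and a line of equal length. Most points lie below 1 kb in both libraries, and more lie under the line (1723) than above it (1021).

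Of the regions seen in only 1 enterocyte library and nowhere else, 2990 were of replicate 1 and 1367 of replicate 2. The enterocyte-only regions were thus 38.7% of the 7105 regions found in either enterocyte library and in no other group. The like share was 28.8% for E12.5, 33.6% for E14.5 and 27.3% for ISC. These shares depend on how evenly the 2 lists of a group were called. Regions of 1 library alone numbered 1147 and 6840 in E12.5 replicates 1 and 2, 3214 and 1227 in E14.5, and 318 and 9256 in ISC.

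By the scores of the authors' peak caller, these were weak to middling peaks of their lists. A region was scored in each library by its strongest peak, ranked among all peaks of the list. The −log10 q so taken had a median of 9.87 in replicate 1 and 7.46 in replicate 2. This put the median region at percentile 42.1 and 34.8 of the respective list. Over all peaks in these regions the medians were 9.47 and 7.10. The fold enrichment over local background had a median of 4.90 and 4.13. In 662 regions (24.1%) the −log10 q was at least 10 in both libraries, and in 1195 it was so in neither. Above the median of both lists lay 455 regions (16.6%). Only 18 lay above percentile 75 of both lists, and none above percentile 90 of both.

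**Figure D2:**
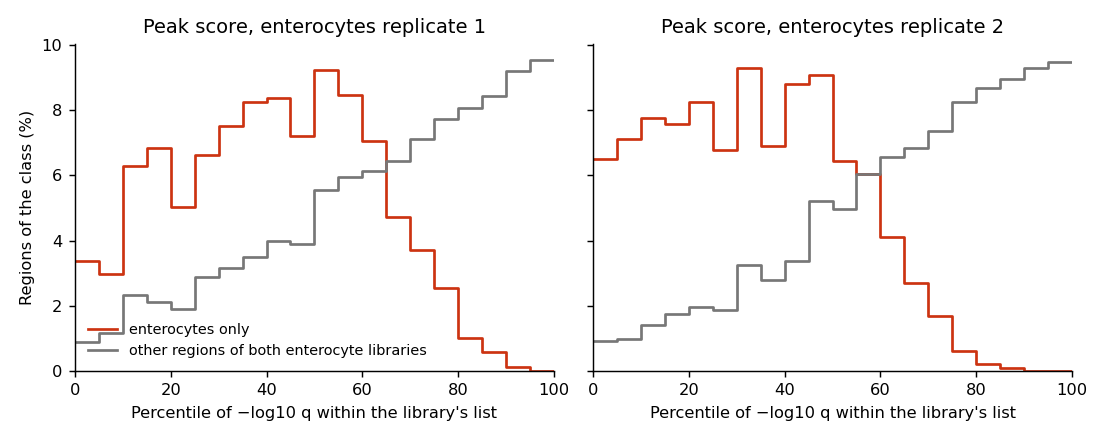
Percentile of the −log10 q of a region's strongest peak within the list of enterocyte replicate 1 (left) and replicate 2 (right). Values are percentages of regions of each class in bins of 5 percentiles. The 2748 enterocyte-only regions (red) thin out above percentile 60, while the 18629 other regions of both enterocyte libraries (grey) grow in share toward the top.

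Strength in enterocytes was higher for regions found in more of the other libraries, though not at every step. The median −log10 q in replicate 1 was 9.87 with no other library, 12.3 with 1, 20.2 with 4 and 36.5 with all 6. In replicate 2 it was 7.46, 9.21, 17.2 and 52.0 at the same steps. The smaller of the 2 covered lengths had a median of 435 bp with no other library and 1320 bp with all 6. The merged regions had a median length of 703 bp with no other library and 2871 bp with all 6. A longer region can hold more peaks from which the strongest is taken, and the part of length in these scores was not tested. The part of the calling threshold in the absence of these regions elsewhere was not tested.

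Near the edge of the rule, 1 library decided most cases. Of the 1125 regions in both enterocyte libraries and exactly 1 other, 976 (86.8%) had ISC replicate 2 as that other, with 1 to 73 for each of the remaining 5. With ISC replicate 2 set aside these would join and give 3724 regions, and joining the peaks anew without it gave 3909. The members closest to a peak of another library were on chromosome 18 (21246648 to 21247816), on chromosome 6 (54185819 to 54186565) and on chromosome 6 (86556703 to 86557235). They missed a peak of ISC replicate 2 by 2, 4 and 6 bases, and the one missed by 4 bases lay as close to an E14.5 peak. Just outside the rule were regions on chromosome 19 (58821945 to 58822294), chromosome 2 (73791040 to 73791736) and chromosome 4 (87516669 to 87517124), each with 207 bases under a peak of ISC replicate 1 and none in the other 5.

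The number of regions also followed the calling and joining of peaks. It was 1293 when a −log10 q of at least 10 was asked of every peak in all 8 lists, 1399 when peaks up to 1 kb apart were joined, and 673 when no other library might have a peak within 10 kb.

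The longest enterocyte-only region, by the smaller of its covered lengths, lay on chromosome 11 (55026425 to 55032630). Peaks covered 5709 bp of it in replicate 1 and 5338 bp in replicate 2, with a fold enrichment of 13.8 and 12.6 at the strongest peak. Both libraries covered most of the region, and its nearest other peak lay 2.63 kb away in ISC replicate 2. The region on chromosome 19 (32131627 to 32137208) came next, with 5515 and 5057 bp and a fold of 11.2 and 9.42. It had a fellow enterocyte-only region 0.896 kb away and the nearest region of all 8 libraries was 43.9 kb away. On chromosome 5 (148683522 to 148689190) the covered lengths were 5669 and 4880 bp, and the fold of 15.0 and 12.0 also placed this region among the 8 highest by score.

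The other 5 of the 8 longest covered 3692 to 5238 bp in each library. They lay on chromosome 3 (122570679 to 122575506), chromosome 2 (5769517 to 5774754), chromosome 15 (31511442 to 31516020), chromosome 13 (91902046 to 91906877) and chromosome 4 (122651717 to 122655499). Their settings differed. The region on chromosome 2 was 0.088 kb from a region found in all 8 libraries, so it bordered a stretch marked in every group. The region on chromosome 13 had no peak of another library within 18.9 kb. The region on chromosome 15 stood alone, with its nearest fellow 3381 kb away, and the 2 libraries differed at it, with a −log10 q of 37.5 in replicate 1 and 13.8 in replicate 2.

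High scores were not confined to long regions. By the smaller of its 2 percentiles, the top region lay on chromosome 11 (74564485 to 74565755), with 1125 and 1271 bp under peaks. Its −log10 q was 57.1 and 70.1, at percentile 88.5 and 86.1. The next were on chromosome 4 (139183485 to 139186905) with 3336 and 3137 bp and a fold of 10.2 and 15.2, and on chromosome 19 (4434760 to 4436418) with 1659 and 1174 bp and a fold of 14.2 and 12.6. The regions on chromosome 5 (53078457 to 53080455) and chromosome 7 (88254349 to 88256758) had folds of 9.99 to 13.1. The shortest of the 8 was on chromosome 6 (91980018 to 91980706), with 685 and 689 bp at a fold of 11.8 and 12.6, close in both libraries.

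Many enterocyte-only regions lay near each other. A fellow was found within 50 kb for 1886 of them (68.6%), within 20 kb for 60.5% and within 1 kb for 37.0%. The gap to a fellow had a median of 6.94 kb and a lower quartile of 0.256 kb. A stretch called as several narrow peaks counts as several regions here. Joining peaks up to 1 kb apart gave 1399 regions, and the shares were not recomputed for them. Within 50 kb a fellow of the same class was found for 54.3% of the ISC-only regions, 42.5% of the E14.5-only and 52.8% of the E12.5-only regions. The classes differ in number and length, which such a share follows, and no test was made of the difference. For the 18629 other regions of both enterocyte libraries the share was 86.2%. Joining regions up to 50 kb apart gave 1534 groups, of which 862 held 1 region, 672 held 2 or more and 138 held 4 or more.

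The group with the longest summed cover among those of 9 regions lay on chromosome 8 between 112378687 and 112435690, over 57.0 kb. Its 9 regions covered 8.86 kb in replicate 1 and 6.01 kb in replicate 2 and were 506 to 1918 bp long. They stood among peaks shared with other groups: all peaks in the span covered 23.4 and 16.3 kb in the enterocyte libraries, 2492 and 5010 bp in ISC, 2.95 and 3.15 kb in E14.5, and 3.16 and 3.25 kb in E12.5. Both enterocyte libraries were above all other 6 here. The other group of 9, on chromosome 2 between 142514866 and 142584824, stood almost alone. No embryonic library and not ISC replicate 1 had a peak in its 70.0 kb, ISC replicate 2 had 0.610 kb, and the enterocyte libraries had 13.5 and 6.86 kb.

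**Figure D3:**
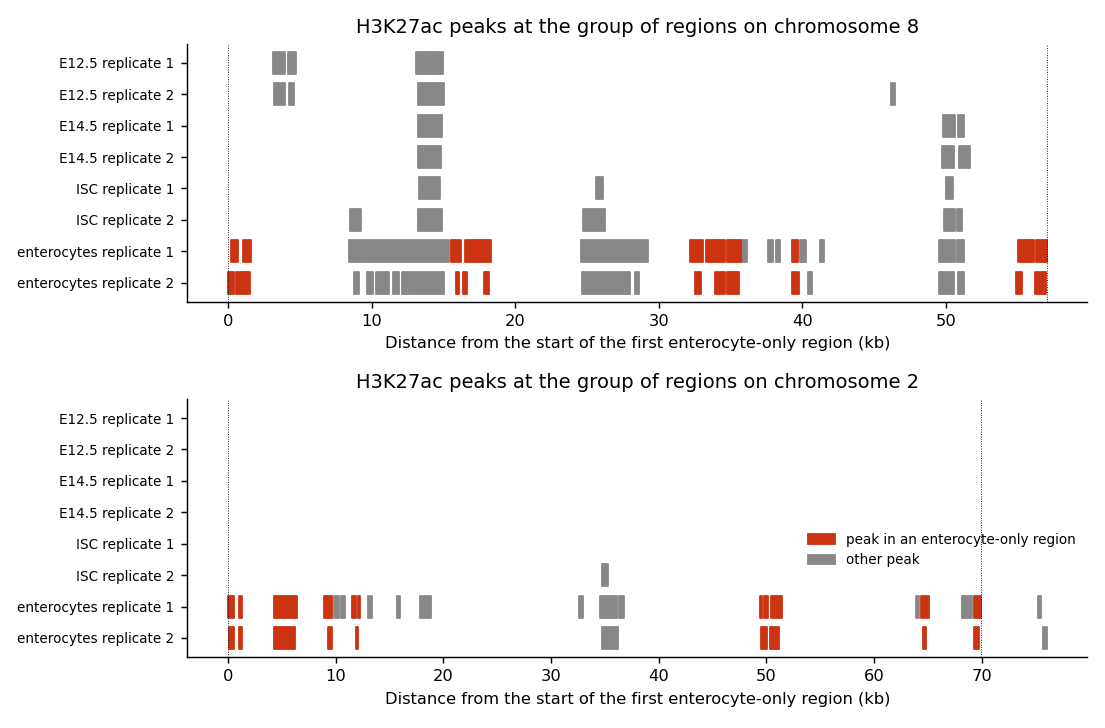
Called H3K27ac peaks of the 8 libraries (rows) at the groups of 9 enterocyte-only regions on chromosome 8 (top) and chromosome 2 (bottom), by distance in kb from the start of the first of these regions. Dotted lines bound the span, red bars are peaks inside enterocyte-only regions and grey bars are all other peaks. On chromosome 8 the red bars lie between peaks of other groups, and on chromosome 2 a single peak of ISC replicate 2 is the only one from outside the enterocyte libraries.

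Of the 5 groups with 8 regions, the 3 with the longest cover, taken as the smaller of the 2 enterocyte lengths, are given first. On chromosome 10 (98671983 to 98713959) peaks covered 21.2 and 16.0 kb in enterocytes, 2.24 and 6.08 kb in ISC, 2.58 and 1.60 kb in E14.5, and 0 and 1.04 kb in E12.5. On chromosome 6 (86556703 to 86610957) the values were 17.3 and 15.3 kb in enterocytes, 1.81 and 3.18 kb in ISC, 0.687 and 0.974 kb in E14.5, and 0 in both E12.5 libraries. On chromosome 5 (33398484 to 33458632) they were 21.3 and 20.6 kb, 6.69 and 9.17 kb, 3.82 and 3.23 kb, and 0.873 and 2.25 kb in the same order. The remaining groups of 8 lay on chromosome 14 (121792617 to 121909221) and on chromosome 10 (75564054 to 75619061). On chromosome 14 the 6 other libraries had 3.07 to 7.25 kb, the least in E12.5 replicate 1 and the most in ISC replicate 2. On chromosome 10 they had 294 to 2191 bp, the least in ISC replicate 1 and the most in E12.5 replicate 2. The order of the other libraries thus varied between groups. The libraries also differ in how much was called: of the 6, ISC replicate 2 had the most bases under peaks in all (76.1 Mb) and E12.5 replicate 1 the least (43.6 Mb). The part of this in the order was not tested, and the lead of enterocytes follows from the choice of spans.

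Among the 672 groups with 2 or more regions, 372 had no peak of another library anywhere in the span. Of the 138 with 4 or more, 26 were of this kind and held 117 regions. The 3 named here were chosen after their values were seen. On chromosome 10 (30403555 to 30494857) 7 regions were spread over 91.3 kb and covered 5.46 and 4.57 kb. On chromosome 2 (172949210 to 172965080) 6 regions lay within 15.9 kb and covered 7.38 and 6.57 kb. The strongest of those 6, from 172962505 to 172965080, covered 2490 and 2262 bp at percentile 87.2 and 78.4 by score, and its nearest peak of another library was 11.3 kb away. On chromosome 10 (122133666 to 122174561) 6 regions covered 4.63 and 3.93 kb.

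Peaks of the other groups were often close by. The nearest peak of any other library lay a median of 3.19 kb from an enterocyte-only region, and 1920 regions (69.9%) had none within 1 kb, 673 (24.5%) none within 10 kb and 110 (4.00%) none within 50 kb. By group, the median gap was 4.03 kb to ISC, 6.34 kb to E14.5 and 8.85 kb to E12.5. The nearest peak belonged to ISC replicate 2 in 1533 regions (55.8%) and to ISC replicate 1 in 126. ISC replicate 2 has the most bases under peaks of all libraries, and its part in the order of the groups was not tested. The regions farthest from any other library were a pair on chromosome 9, 11425894 to 11428059 and 11435026 to 11436389, with no other peak for 1.36 and 1.35 Mb. In replicate 1 they covered 2166 and 1364 bp, in replicate 2 only 642 and 457 bp.

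Enterocyte-only regions also lay beside enterocyte peaks that other groups share. The nearest other region of both enterocyte libraries was within 1 kb for 729 of them (26.5%) and within 10 kb for 1861 (67.7%), at a median gap of 4.36 kb. Among those 18629 other regions the like values were 23.0%, 56.7% and 7.05 kb. For 45.1% of the enterocyte-only regions that neighbour was a region of all 8 libraries, which was the case for 62.8% of the other enterocyte regions. The neighbour was shared with ISC alone for 11.9% against 9.23%, with E14.5 and ISC for 9.93% against 8.39%, and with E14.5 alone for 1.67% against 0.650%. All other patterns made up 31.4% against 18.9%, the widest of these gaps between partly shared neighbours. Sharing with a group asked for both of its libraries, so the other patterns include neighbours held by 1 library of a group. The regions that could be such a neighbour included the 976 with ISC replicate 2 as the only other library. These shares are a description with no test.

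The regions were found on all chromosomes except Y. Chromosome 2 held the most, 211, or 7.68% of them beside 7.54% of the regions of both enterocyte libraries. Per 100 regions of both enterocyte libraries there were 13.1 on chromosome 2, 8.56 on chromosome 15 (66 regions), 12.1 on chromosome X (47) and 16.2 on chromosome 12 (131).

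The neighbourhood of the enterocyte-only regions was measured after their own peaks had been taken out. Within 20 kb on either side, 71.5 Mb in all, peaks covered 11.0 and 9.90% of the bases in the enterocyte libraries, 7.16 and 11.0% in ISC, 7.93 and 6.96% in E14.5, and 4.43 and 6.12% in E12.5. ISC replicate 2 thus reached the level of enterocytes, while ISC replicate 1 did not. As a share of a library's bases under peaks outside enterocyte-only regions, this neighbourhood held 20.3% ± 1.58 in enterocytes (mean and SD, n = 2), 10.2% ± 0.241 in ISC, 8.73% ± 0.0233 in E14.5 and 7.29% ± 0.0126 in E12.5. Leaving those regions out lowers the total in the enterocyte libraries alone, from 38.8 Mb in each to 36.7 and 37.0 Mb. On the scale of these shares, which takes out how much was called, both ISC libraries lay between the embryonic and the enterocyte libraries, at 10.0 and 10.3%. The same libraries chose the regions, so no test is given.

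The other classes showed the same form, again with the regions of the class left out of the total. Around ISC-only regions the share was 18.5% ± 0.0242 in ISC and 13.6% ± 0.295 in enterocytes, around E14.5-only regions 11.4% ± 0.0379 in E14.5 and 9.23% ± 0.239 in E12.5, and around E12.5-only regions 12.9% ± 0.150 in E12.5 and 8.73% ± 0.358 in E14.5. The group that defined the class was highest each time.

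With distance the excess in enterocytes faded, as percentages of bases that are not scaled by how much each library had called. In the first 5 kb the enterocyte libraries had 15.3 and 12.9% of bases covered. ISC replicate 2 had 10.3%, and the remaining 5 had 3.74 to 6.90%. The rule lets no peak of these 6 libraries overlap or touch the regions, which can lower their cover close by. The E12.5 libraries had 3.74 and 5.14% in the first 5 kb and 4.82 and 6.60% from 5 to 10 kb. The part of the rule in the excess close by was not tested. Between 45 and 50 kb the enterocyte libraries had 5.94 and 5.72%, within the 4.16 to 8.91% of the others, and between 95 and 100 kb 4.35 and 4.26%, within 3.50 to 7.43%. Each enterocyte library had 38.8 Mb under peaks in all, while ISC replicate 2 had 76.1 Mb. The part of this in the distance at which the libraries met was not tested.

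**Figure D4:**
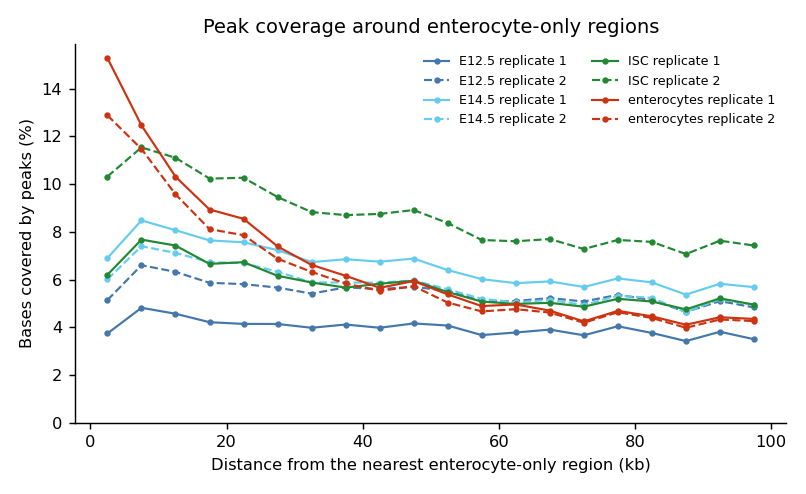
Percentage of bases under H3K27ac peaks by distance from the nearest enterocyte-only region (kb, bins of 5 kb), with the peaks of those regions taken out; 1 line per library, replicate 2 dashed. The percentages are not scaled by how much each library had called. The enterocyte libraries (red) start at 15.3 and 12.9% and meet the other libraries by 50 kb, while ISC replicate 2 (green, dashed) stays above the rest beyond 20 kb.

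The same surroundings were compared between groups in windows of 20 kb over the whole genome. Length under peaks outside enterocyte-only regions was scaled by each library's total and fitted with limma as log2(bp + 500), enterocytes against the mean of the other 3 groups, at a Benjamini-Hochberg adjusted p below 0.05. Over the 30217 windows tested, 6050 (20.0%) were called higher in enterocytes and 13065 (43.2%) lower, and the median log2 difference was −0.35. Enterocyte-only regions fell in 2045 windows. In 524 of these too few libraries had another peak for a test, and 38 were tested on enterocyte peaks alone. Of the 1521 tested, 1115 (73.3%) were called higher and 64 (4.21%) lower, with a median of 1.16. The windows were picked through the same libraries and the same contrast, so the difference between 73.3% and 20.0% is a description from which nothing is read about the regions.

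Without the scaling the median over all windows was −0.56. The calls over all windows were then 2778 higher (9.19%) and 15234 lower (50.4%), and in windows with enterocyte-only regions 742 higher (48.8%) and 116 lower, at a median of 0.67. The enterocyte libraries have the fewest bases under peaks, and this is the quantity that the scaling evens out.

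**Figure D5:**
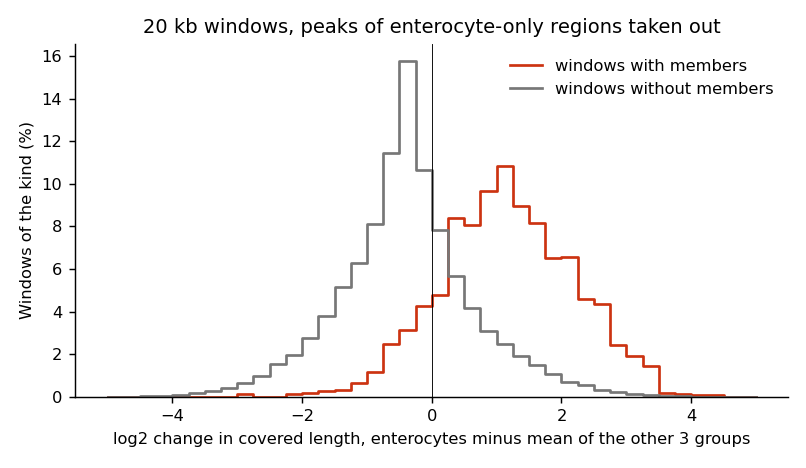
Distribution of the log2 difference in scaled length under peaks, enterocytes minus the mean of the other 3 groups, in bins of 0.25 as a percentage of windows of each kind; peaks of enterocyte-only regions are taken out. The 1521 windows with such regions (red) have a median of 1.16, and most of the others (grey) lie below 0.

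By number of enterocyte-only regions in a window, 70.9% of the 1070 windows with 1 were called higher and 77.1% of the 332 with 2. The share was 85.9% of the 92 with 3 and 77.8% of the 27 with 4 or more. Of the 28696 windows with none, 17.2% were called higher. These windows were picked through the same libraries and contrast, so the shares are a description and not a result about the enterocyte-only regions. In the 20 kb window on chromosome 8 from 112400001 to 112420000, which holds 4 of them, other peaks covered 5.96 and 3.86 kb in enterocytes, 0.511 and 1.47 kb in ISC and none in the embryonic libraries. Around the region on chromosome 4 (122651717 to 122655499), the window from 122640001 to 122660000 had 2.70 and 4.23 kb in enterocytes, 0.394 and 1.66 kb in ISC and none in the embryonic libraries. Around the longest region, on chromosome 11 between 55020001 and 55040000, groups overlapped, with 1469 and 1203 bp in enterocytes, 1203 and 1815 bp in ISC, 1219 and 642 bp in E14.5 and none in E12.5. Around the region on chromosome 7 (88254349 to 88256758) the window from 88240001 to 88260000 had 2945 and 3129 bp in enterocytes, none in ISC, 1200 and 935 bp in E14.5 and 371 and 604 bp in E12.5, so there the embryonic libraries and not ISC shared the neighbouring mark.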

How the data were processed

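H3K27ac was measured by chromatin immunoprecipitation and sequencing in 8 libraries, each with an input library. The submitters' processing notes list the build mm9 and the tools Bowtie 1.1.2, bcl2fastq 1.8.4, MACS2 and SAMtools 1.2. Per the file headers, MACS 2.1.0.20140616 called narrow peaks in each library apart, against its input, at q 0.05, with tags of 51 bp. The deposited lists give peak start, end and length in bp, the pileup signal, −log10 p and −log10 q values and the fold enrichment ratio. These scores are the authors' and were used only within a list. No read counts of regions were used, so precision rests on 2 libraries a group.

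Regions were merged and covered lengths summed in Python 3.11.15 with pandas 2.3.3. Windows that held peaks of 2 or more libraries were fitted with limma 3.58.1 in R 4.3.3 (lmFit, eBayes with trend and robust, 4 group means, 4 residual degrees of freedom). On simulated data the region rule recovered 100.0% of 840 planted regions. Its simulated sites stood far apart and the peaks of a site always overlapped, so full recovery was set by construction. That run checks the code alone. In the real lists the gap to a fellow had a lower quartile of 0.256 kb. The fit recovered 100% of 200 windows planted with a 4-fold change, and 4.76% of its calls were false. That simulation held 26181 windows with peaks in every library and independent noise. The real windows often lack peaks in a library, and 20.0% of them were called higher and 43.2% lower. The simulated share of false calls therefore does not carry over to them. Members and lists were chosen with earlier results of these data known. Regions were named by fixed ranks: the 8 longest, the 8 highest in score, the 5 groups with the most regions (ties by the longer cover), the 4 farthest from another library and those nearest the edge of the rule. The other groups of regions named were chosen after their values were seen. The RefSeq tables used here have another build than mm9, and no position was converted, so gene names, gene lists, promoter shares and sequences are not reported here. No permutation test of 2 libraries against 6 was run, and its smallest one-sided p, doubled, would be 0.0714.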

Additional observations from a re-analysis of the deposited data

How the results depend on the processing

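The number of enterocyte-only regions was 3693 with as many peaks taken from each list as the shortest holds, 2211 with 50% of the region covered in both libraries and 1920 with no other peak within 1 kb, against 2748. It moved to 1293 with −log10 q of at least 10, to 1399 with peaks merged across gaps of 1 kb and to 673 with no other peak within 10 kb. Leaving out 1 library gave 2749 to 6337; the counts of 5103 and 6337 came from 1 enterocyte library alone, without replicate 1 and without replicate 2. Their mean covered length was 2.00 Mb, and under these settings in the same order 2.90, 1.68, 1.41, 1.70, 1.43 and 0.493 Mb, or 2.00 to 3.44 Mb without 1 library. The share with a fellow within 50 kb was 68.6%. It was 53.0% at −log10 q of at least 10 and 73.1% with equal numbers of peaks, and 60.5 and 74.9% at 20 and 100 kb, and it ran from 68.6 to 85.2% without 1 library.

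Windows with members called higher numbered 1115 and lower 64. Without scaling they were 742 and 116, at −log10 q of at least 10 they were 463 and 37 (of 700 tested), and leaving out 1 library gave 972 to 1099 and 48 to 74. With every region of enterocyte libraries alone taken out, a setting added after seeing the data, they were 1076 and 104 (of 1485 tested). With a replicate block they were 1100 and 56. Over all windows 20.0% were called higher and 43.2% lower in the main fit, and 9.19 and 50.4% without scaling. The shares were 18.8 and 36.7% at −log10 q of at least 10. They were 20.4 and 43.8% with the wider removal, and 19.3 and 40.9% with the block. Leaving out 1 library leaves a group with 1 library, so no share is given for it. Deviations of same-numbered libraries correlated at −0.176 to 0.173 over the 6 pairs of groups, which cannot show whether those libraries shared an animal or a batch. Of the 62 named regions 32 stayed at −log10 q of at least 10, 60 with equal numbers of peaks, 52 at 50% cover and 17 with no other peak within 10 kb. Where a value moved under a stricter setting, the setting removes peaks or regions by its construction. The −log10 q setting filtered the lists of the other libraries too, so regions could also join when such a peak dropped out. Of the 2748 regions, 662 reached 10 in both enterocyte libraries, while the setting gave 1293. The 1293 are therefore not simply what was left of the 2748, and the 700 windows tested belong to that other set. Other causes were not tested. The planned share of regions at gene starts was not run, for want of an annotation on mm9. Depth at each region is unknown here, so absence from a list is not absence of the mark.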
